A study of Mus musculus with 4 samples.

Results

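The cytochrome P450 genes of families 2, 3 and 4 were described in the kidneys and hearts of septic mice, with and without melatonin. Members were protein-coding genes with a symbol of the form Cyp2, Cyp3 or Cyp4, then a letter and a number, and a mean of 10 or more counts in either tissue. This gave 38 members among the 55401 genes of the count tables, from 77 genes with such a symbol. Family 2 held 23 members of 48 genes, family 3 held 1 of 9, and family 4 held 14 of 20. In all, 4 RNA-seq libraries were used, 1 each for kidney CLP, kidney CLP+MLT, heart CLP and heart CLP+MLT. All came from C57BL/6 mice, described in the study's methods as males of 8 weeks, that had undergone cecal ligation puncture (CLP), a surgical model of abdominal sepsis. For the kidneys, melatonin (MLT) was given at 25 μg/ml in drinking water that held 0.1% ethanol. It was given before surgery on day 15, and the organs were taken 24 h later. The methods name ethanol in the water of the sham group as well, and do not state whether the water of the CLP group held it. The labels name the melatonin kidney CLP+MLT4 and the melatonin heart CLP+MLT, with CLP+MLT4 in its title, and the sources used here do not explain the 4. The study's methods describe kidneys, so the dose and time for the hearts are not given in them. Whether a library held RNA from 1 mouse or several is also not given, and the sham groups of the study were not analysed here.

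P450 enzymes are heme proteins that insert oxygen into their substrates, and those of families 2, 3 and 4 lie in the endoplasmic reticulum and take electrons from the reductase Por. Families 2 and 3 oxidise drugs, toxicants and steroids, and several Cyp2c and Cyp2j enzymes also turn arachidonic acid into epoxides. Family 4 hydroxylates the end of fatty acid chains, and its products from arachidonic acid act on renal vessels and tubules. In kidney these enzymes are best known from the proximal tubule.

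Because each group had 1 library, no difference below could be set against the spread between mice. A member is called here when its fold was at least 1.5 after scaling by TMM, a trimmed mean of the log ratios of all genes, and an exact binomial test on its reads, at a threshold of 0.01, separated the 2 libraries. That test, and the 95% intervals given with log2 ratios (the CLP+MLT level divided by the CLP level), cover counting error only. Reads copied by PCR are not independent molecules. The libraries held 15883057 to 22927905 counts on genes. Mitochondrial genes took 14.8% of them in kidney CLP and 24.2% in kidney CLP+MLT, against 31.6% and 36.0% in the hearts. Summed cardiomyocyte markers stood at 33670 and 24704 CPM (counts per 1000000 counts on genes) in the heart libraries and at 13.3 and 16.9 CPM in the kidneys, and none of the listed cardiomyocyte or proximal tubule markers was at 0 in its own tissue. In such bulk RNA, fewer cells of a type and less RNA per cell cannot be told apart.

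Several members are near copies of each other, and their sequences are shown first because the kidney result turns on telling them apart. Cyp2a4 (GRCm38 chr7:26307169-26315088, plus strand) and Cyp2a5 (chr7:26835305-26843548, plus strand) differed at 23 of 1482 coding bases, an identity of 98.4%. Cyp4a12a (chr4:115299046-115332815, plus strand) and Cyp4a12b (chr4:115411624-115439034, plus strand) differed at 23 of 1524, an identity of 98.5%. The stretches below run from coding base 596 to 655 in the first pair and from 624 to 683 in the second. Capitals mark the 4 bases in each that separate the partners.
Cyp2a4: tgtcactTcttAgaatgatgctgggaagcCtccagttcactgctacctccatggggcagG
Cyp2a5: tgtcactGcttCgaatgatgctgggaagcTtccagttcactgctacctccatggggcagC
Cyp4a12a: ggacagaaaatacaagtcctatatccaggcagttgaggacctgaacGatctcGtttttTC
Cyp4a12b: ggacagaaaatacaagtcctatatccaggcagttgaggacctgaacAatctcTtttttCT
Of all windows of 50 coding bases, 41.4% of those of Cyp2a4 and 51.6% of those of Cyp2a5 also occurred in another transcript. For Cyp4a12a and Cyp4a12b the share was 54.8% each. Reads that aligned to more than 1 place were not counted. They made up 23.6% of the kidney CLP file and 32.6% of the kidney CLP+MLT file, and 38.6% and 37.0% of the heart files, and their part in the ratios was not tested. It follows that near copies were counted on the rest of their length, and a read with a mismatch could still be given to the wrong partner. Cyp4a10 was 97.2% identical to Cyp4a32 and 96.6% to Cyp4a31. In all, 19 of the 38 members had 10% or more of their windows in another gene, and 7 shared none.

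The identity of the first pair extended to the bases before their RefSeq starts. The last of these bases lie inside the gene coordinates given above. The 250 bases before the RefSeq start of Cyp2a4 (GRCm38.p6 chr7:26306942-26307191, plus strand) and Cyp2a5 (chr7:26835089-26835338, plus strand) are given in that order. They aligned over 249 bases, of which 245 were the same, or 98.4%. Capitals mark the 4 substitutions and the base that overhangs at either end.
Cyp2a4: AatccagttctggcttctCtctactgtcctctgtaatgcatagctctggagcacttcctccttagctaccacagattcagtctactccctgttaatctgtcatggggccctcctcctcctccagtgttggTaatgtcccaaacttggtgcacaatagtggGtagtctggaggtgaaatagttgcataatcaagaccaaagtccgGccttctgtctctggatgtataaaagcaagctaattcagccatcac
Cyp2a5: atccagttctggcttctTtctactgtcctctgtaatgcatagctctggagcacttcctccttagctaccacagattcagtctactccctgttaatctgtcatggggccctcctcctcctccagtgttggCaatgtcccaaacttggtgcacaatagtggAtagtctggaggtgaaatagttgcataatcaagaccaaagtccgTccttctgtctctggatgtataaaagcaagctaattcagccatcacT
The scaled ratios of the 2 genes nevertheless differed in sign in kidney, as given below. RefSeq promoters, from 250 bases before to 50 after the start, were found for 27 of the 38 members. Most of the Cyp4a genes had no entry. The hexamer AGGTCA, which many nuclear receptors bind, was present on either strand for 6 of the 27, Cyp2a4 and Cyp2a5 among them, and for 18.1% of 27025 genes. The 250 bases of Cyp2a4 and Cyp2a5 printed above do not hold it, so there it reached into the 50 bases after the start. A direct repeat of AGGNCA with a spacer of 1 base, as bound by PPAR and HNF4, was found for 2 of the 27, Cyp2d9 and Cyp2d10, and for 0.451% of all genes. Such letters are a description of the window and not evidence of binding.

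In kidney CLP the members took 0.898% of the counts, and in kidney CLP+MLT 0.671%. Cyp4a10, a fatty acid hydroxylase that PPAR alpha induces, had the highest level per length in both, 760 and 809 RPKM (CPM per kilobase of exon). In the CLP library it was followed by Cyp2a5 with 573, Cyp2e1 with 516, Cyp4a14 with 487 and Cyp2a4 with 438 RPKM. In the CLP+MLT library the order after Cyp4a10 was Cyp2a4 with 523, Cyp2j5 with 301, Cyp4a14 with 299 and Cyp2e1 with 240 RPKM. Cyp2a5 held rank 2 among the members in the CLP library and rank 8 in the CLP+MLT library, where it had 172 RPKM. The lowest of the members in the CLP library was Cyp4f15 with 0.172 RPKM.

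**Figure D1:**
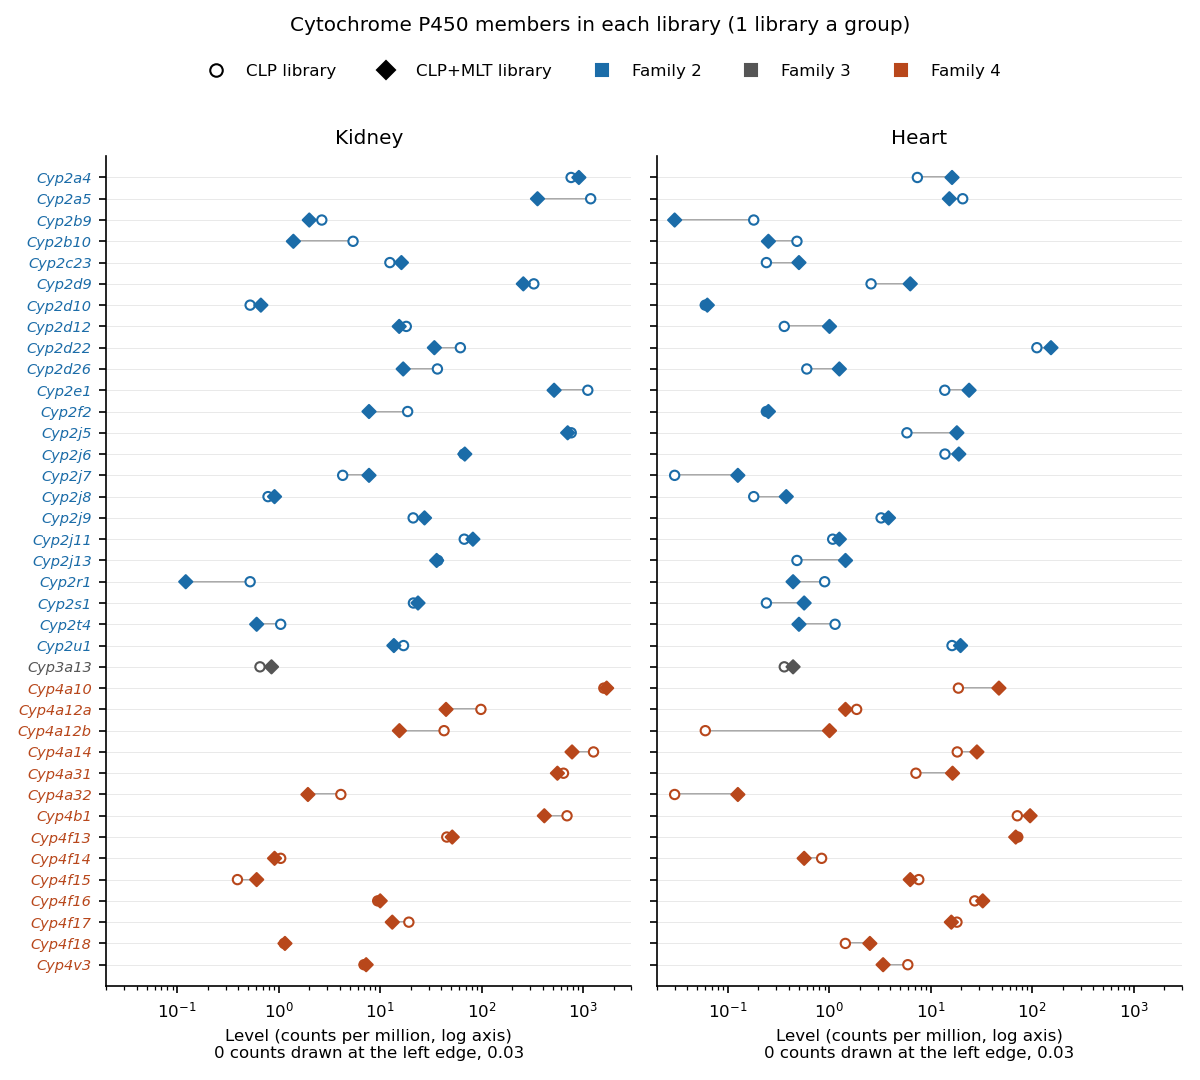
Level of each of the 38 members in the 4 libraries, in CPM on a log axis, kidney at left and heart at right. Open circles are CLP libraries, filled diamonds are CLP+MLT libraries, colours mark the families and values of 0 are drawn at the left edge. Cyp2a5 stood at 1188 CPM in kidney CLP and 356 CPM in kidney CLP+MLT, and most Cyp2 and Cyp4a members lay far lower in heart than in kidney.

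Family 2 held most of the kidney calls. Of its 22 members with a mean of 10 or more kidney counts, 6 were lower in the CLP+MLT library, 1 was higher and 15 were not called. Over all 16932 kidney genes tested, 7.58% were called lower and 7.8% higher. The median log2 ratio of the family was 0.022, beside 0.0029 for all genes.

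Cyp2a5, which hydroxylates coumarin and nicotine, had 27237 counts in kidney CLP and 5857 in kidney CLP+MLT. Its log2 ratio was -1.55 (interval -1.59 to -1.50), or 2.92-fold lower. Its near copy Cyp2a4, a steroid hydroxylase, had 17472 and 14975 counts and a log2 ratio of 0.45 (0.42 to 0.48), short of the fold threshold. Per length, Cyp2a5 stood at 573 RPKM beside 438 for Cyp2a4 in the CLP library, and at 172 beside 523 in the CLP+MLT library. The antisense gene Gm42375 covers 3.51% of the exon bases of Cyp2a4 and had 282 and 179 counts. A pseudogene of the subfamily, Cyp2a21-ps, had 45 and 4 counts.

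Cyp2e1 (chr7:140763739-140774987, plus strand), which oxidises ethanol and other small molecules, was the other abundant member of the family called in kidney. It had 25518 counts in kidney CLP and 8536 in kidney CLP+MLT, a log2 ratio of -0.91 (-0.94 to -0.87). Cyp2a5 and Cyp2e1 made up most of the difference in the family's summed level, which was 4547 CPM in the CLP library and 3100 CPM in the CLP+MLT library. With TMM scaling the log2 ratio of the family's summed counts was -0.36.

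Cyp2b10 (chr7:25897620-25926624, plus strand), the phenobarbital-inducible target of the receptor CAR, had 124 and 23 counts and a log2 ratio of -1.74 (-2.47 to -1.11). This was the lowest ratio of any member, on few reads. Its relative Cyp2b9 had 61 and 33 counts, and its interval of -0.87 to 0.42 held 0. Cyp2f2 (chr7:27119909-27133660, plus strand), known for oxidising naphthalene in airway cells, had 428 and 128 counts and a log2 ratio of -1.07 (-1.37 to -0.78). The antisense gene Gm15883 covers 13.5% of its exon bases and had 632 and 219 counts. The library kit did not mark strand, so reads from the overlap of these 2 genes cannot be told apart.

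The Cyp2d enzymes oxidise many drugs, and 2 of the 5 were lower in the CLP+MLT kidney. Cyp2d26 (chr15:82790101-82794294, minus strand) had 841 and 278 counts, with a log2 ratio of -0.92 (-1.13 to -0.73). Cyp2d22 (chr15:82370527-82380260, minus strand) had 1416 and 564 counts, with a log2 ratio of -0.66 (-0.80 to -0.51). Cyp2d9, the most abundant of them, had 7498 and 4245 counts and a log2 ratio of -0.15 (-0.20 to -0.09). Cyp2d12 and Cyp2d10 had intervals that held 0.

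Of the 8 members of Cyp2j and Cyp2c, subfamilies that include arachidonic acid epoxygenases, 1 was called. Cyp2j7 (chr4:96195197-96236659, minus strand) was the 1 member called higher in kidney, with 98 and 128 counts and a log2 ratio of 1.05 (0.67 to 1.45). It shared 2.32% of its windows with other genes. All 7 Cyp2j members had ratios above 0, from 0.08 for Cyp2j5 to 1.05, but with scaling by library size alone those of Cyp2j5 and Cyp2j13 were -0.12 and -0.04. Cyp2j5, by far the most abundant of them, had 17511 and 11612 counts and the summed Cyp2j level was 961 and 927 CPM. With TMM scaling the log2 ratio of the summed Cyp2j counts was 0.14. Cyp2j9 with 485 and 451 counts and Cyp2c23, the renal Cyp2c epoxygenase, with 286 and 267 counts had ratios of 0.57 each, just short of the threshold of 0.585. Both were called with upper-quartile scaling.

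The other members of family 2 tested in kidney were Cyp2j6, Cyp2j8, Cyp2j11, Cyp2s1, Cyp2t4 and Cyp2u1 beside those above, and none of these 6 was called. Cyp2j11 had 1546 and 1352 counts and a ratio of 0.48 (0.37 to 0.58). Cyp2r1, a vitamin D hydroxylase, had 12 and 2 counts in kidney, a mean under the filter.

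Family 3 had few counts. Cyp3a13 (chr5:137892932-137921619, minus strand) was its 1 member, with 15 and 14 counts in kidney and 6 and 7 in heart. Its kidney log2 ratio of 0.55 had an interval of -0.59 to 1.72, which held 0 and was too wide to show a difference. In heart its mean was under the filter. Of the other 8 genes of the family, which in liver are major drug-metabolising enzymes, Cyp3a57 had 1 count in each kidney library and the others, Cyp3a11 among them, had 0 in all 4 libraries. A count of 0 allows up to 0.131 CPM in kidney CLP and 0.182 CPM in kidney CLP+MLT, at a limit of 3 counts.

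In family 4, 3 of the 13 members tested in kidney were called lower in the CLP+MLT library, 0 higher and 10 were not called. Over all kidney genes tested, 7.58% were called lower and 7.8% higher. The median log2 ratio of the family was -0.0059. All 3 calls lay in the Cyp4a subfamily, a cluster on chromosome 4. Cyp4a12a, the androgen-dependent arachidonic acid hydroxylase of male kidney, had 2257 and 735 counts and a log2 ratio of -0.95 (-1.07 to -0.83). Its near copy Cyp4a12b had 978 and 255 counts and a ratio of -1.27 (-1.47 to -1.07). Unlike Cyp2a4 and Cyp2a5, this pair was lower together, with the shared windows given above. Cyp4a32 (chr4:115600969-115621602, plus strand) had 94 and 32 counts and a ratio of -0.87 (-1.51 to -0.29).

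The abundant Cyp4a genes differed less. Cyp4a10 (chr4:115518264-115533649, plus strand) had 36728 and 28122 counts, a ratio of 0.29 (0.26 to 0.31). Cyp4a31 (chr4:115563649-115579015, plus strand) had 14704 and 9201 counts and a ratio of -0.0044 (-0.042 to 0.033). Cyp4a14 (chr4:115486200-115496142, minus strand) had 29057 and 12826 counts, and its ratio of -0.51 (-0.54 to -0.48) was short of the threshold. The same held for Cyp4b1 (chr4:115624725-115647723, minus strand), which oxidises fatty acids and plant toxins, with 15925 and 6837 counts and a ratio of -0.55 (-0.59 to -0.51). Both were called lower when libraries were scaled by size alone. That scaling moved the median of all genes from 0.0029 to -0.19, called 14.0% of genes lower and 4.29% higher, and lowered the share of higher calls among all calls from 50.7% to 23.5%. With it, the medians of families 2 and 4 were -0.17 and -0.20.

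The Cyp4f enzymes hydroxylate the ends of leukotrienes and long-chain fatty acids, and none of the 5 tested in kidney was called. Their summed level was 76.6 and 77.2 CPM, and with TMM scaling the log2 ratio of their summed counts was 0.21. Cyp4f13 led them with 1040 and 846 counts and a ratio of 0.37 (0.24 to 0.51). Cyp4v3, a fatty acid hydroxylase needed in the retina, had 159 and 120 counts and a ratio of 0.27 (-0.09 to 0.62). The family's summed level was 4434 CPM in kidney CLP and 3606 CPM in kidney CLP+MLT. With TMM scaling the log2 ratio of its summed counts was -0.10.

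**Figure D2:**
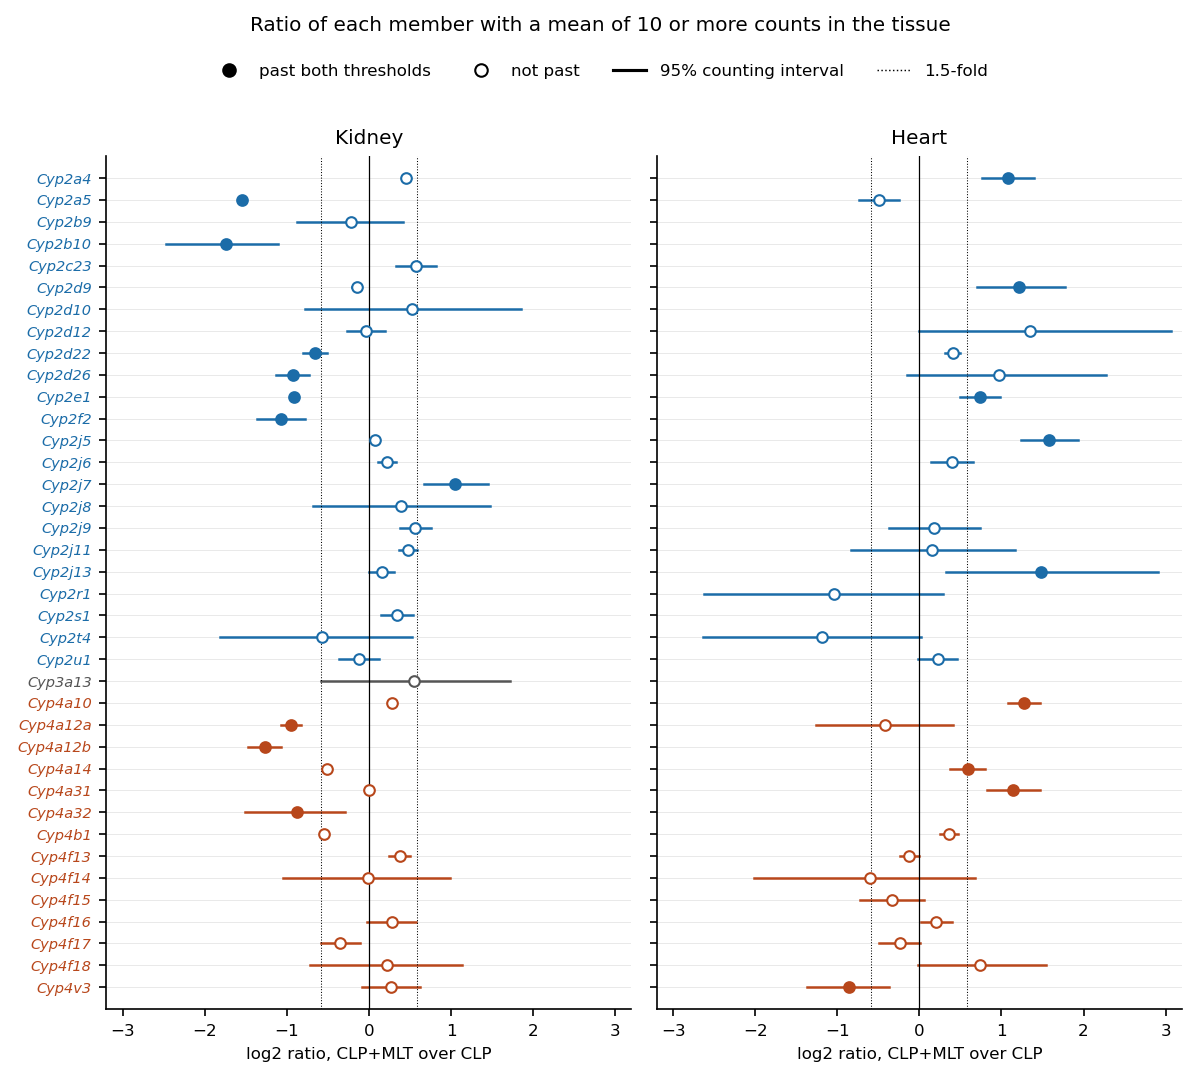
Ratio of the CLP+MLT level to the CLP level on the log2 scale for each member with a mean of 10 or more counts in the tissue, with its 95% counting interval as a bar. Filled points passed both thresholds and dotted lines mark a fold of 1.5. In kidney 9 filled points lie below 0 and 1 above, and in heart 8 lie above 0 and 1 below.

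When a variation between mice was assumed, fewer calls were left. At a coefficient of variation of 0.2, Cyp2a5, Cyp2b10 and Cyp4a12b were still called lower in kidney, where 1.95% of all genes were called lower and 1.71% higher. At 0.4 no member was called, beside 0.396% of genes called lower and 0.136% higher.

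In heart CLP the members took 0.0453% of the counts, and in heart CLP+MLT 0.0605%. Cyp4b1 had the highest level per length, with 31.7 and 42.3 RPKM, followed by Cyp2d22 with 28.5 and 39.2 RPKM. Cyp4f13 came next in the CLP library with 16.2 RPKM, and Cyp4a10 came next in the CLP+MLT library with 22.3 RPKM. Cyp2d22, Cyp2r1, Cyp4f13, Cyp4f15, Cyp4f16 and Cyp4f18 had a higher CPM in heart than in kidney in both the CLP and the CLP+MLT libraries. Cyp4f15 (chr17:32685627-32703352, plus strand) had 127 and 100 counts in heart and 9 and 10 in kidney.

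Family 2 in heart had 15 members with a mean of 10 or more counts, of which 5 were called higher in the CLP+MLT library, 0 lower and 10 not called. Over the 15871 heart genes tested, 7.15% were called higher and 8.78% lower. The median log2 ratio of these members was 0.41, beside 0.0023 for all genes. Cyp2j5 (chr4:96628773-96664154, minus strand) had 97 counts in heart CLP and 288 in heart CLP+MLT, a log2 ratio of 1.57 (1.24 to 1.93). Cyp2j13 (chr4:96027534-96077546, minus strand) had 8 and 23 counts, a ratio of 1.48 with a wide interval of 0.32 to 2.90. Cyp2d9 (chr15:82433437-82456845, plus strand) had 43 and 100 counts, a ratio of 1.22 (0.70 to 1.78).

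Cyp2a4 had 123 and 258 counts in heart, a ratio of 1.08 (0.76 to 1.40), while Cyp2a5 had 344 and 243, a ratio of -0.49 (-0.73 to -0.25) that was not called. Per length, Cyp2a4 and Cyp2a5 stood at 4.26 and 9.98 RPKM in heart CLP and at 9.35 and 7.38 RPKM in heart CLP+MLT. Cyp2e1 had 229 and 380 counts, a ratio of 0.74 (0.50 to 0.98). It was the 1 member called in opposite directions, lower in the kidney and higher in the heart of the CLP+MLT libraries. Cyp2d22 had the most reads of the family, with 1852 and 2436 counts and a ratio of 0.41 (0.32 to 0.49). Cyp2d26 and Cyp2d12 had 20 or fewer counts in either heart library and intervals that held 0. Cyp2j7 had 0 counts in heart CLP, which allows up to 0.180 CPM, and 2 in heart CLP+MLT.

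Family 4 in heart had 12 members tested, of which 3 were called higher, 1 lower and 8 not called, with a median of 0.043. Over all heart genes tested, 7.15% were called higher and 8.78% lower. The 3 higher were all Cyp4a. Cyp4a10 had 312 and 748 counts, a ratio of 1.27 (1.08 to 1.47). Cyp4a31 had 119 and 261 counts, a ratio of 1.14 (0.82 to 1.47). Cyp4a14 had 304 and 454 counts, a ratio of 0.59 (0.38 to 0.80) that barely passed. Cyp4a12b had 1 and 16 counts, under the filter. Cyp4v3 (chr8:45304944-45333216, minus strand) was the 1 member called lower, with 99 and 54 counts and a ratio of -0.86 (-1.37 to -0.37). The gene Gm45753, which covers 8.22% of its exon bases, had 0 counts. Cyp4b1 and Cyp4f13, the highest of the family per length in the CLP library, were not called. Cyp4b1 had 1188 and 1517 counts, a ratio of 0.36 (0.25 to 0.47), and Cyp4f13 had 1199 and 1095, a ratio of -0.12 (-0.24 to -0.0016). At an assumed variation of 0.2, Cyp2j5 and Cyp4a10 were still called, beside 1.84% of genes called higher and 2.33% lower. At 0.4 no member was called, beside 0.265% and 0.132%.

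Most members called higher in heart were abundant kidney genes, so their heart levels were set beside markers of kidney tubule. For the 12 members with a mean of 1000 or more kidney counts, the heart level was a median of 1.34% of the kidney level in the CLP libraries and 3.09% in the CLP+MLT libraries. The range was 0.764% (Cyp2j5) to 20.7% (Cyp2j6) and then 1.53% (Cyp2j11) to 27.8% (Cyp2j6). Markers of the S1 and S2 proximal tubule, such as Slc34a1 and Lrp2, gave medians of 2.74% and 4.86%, and markers of S3 gave 0.911% and 2.03%. Such a share also rises when the kidney level falls, so it is no measure of the heart level alone. The share of Cyp2a5 was 1.74% and 4.30%, with 20.7 and 15.3 CPM in heart. That of Slc5a2 was 6.85% and 29.8%, with 14.3 and 11.5 CPM in heart and 208 and 38.7 CPM in kidney. In heart, 6 of 9 S1 and S2 markers and 5 of 7 S3 markers were called higher in the CLP+MLT library, and 0 were called lower. Their summed heart levels were 104 and 197 CPM for S1 and S2, and 180 and 227 CPM for S3. Of the S1 and S2 sums, Slc34a1 alone held 35.3 and 91.5 CPM, and the other 8 markers summed to 68.6 and 105 CPM. Of the S3 sums, Atp11a alone held 152 and 167 CPM and was not called, and the other 6 markers summed to 27.2 and 60.1 CPM. None was at 0 in either heart library. The part of tubule RNA in the heart ratios of Cyp2a4, Cyp2d9, Cyp2e1, Cyp2j5 and the Cyp4a genes was not tested.

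**Figure D3:**
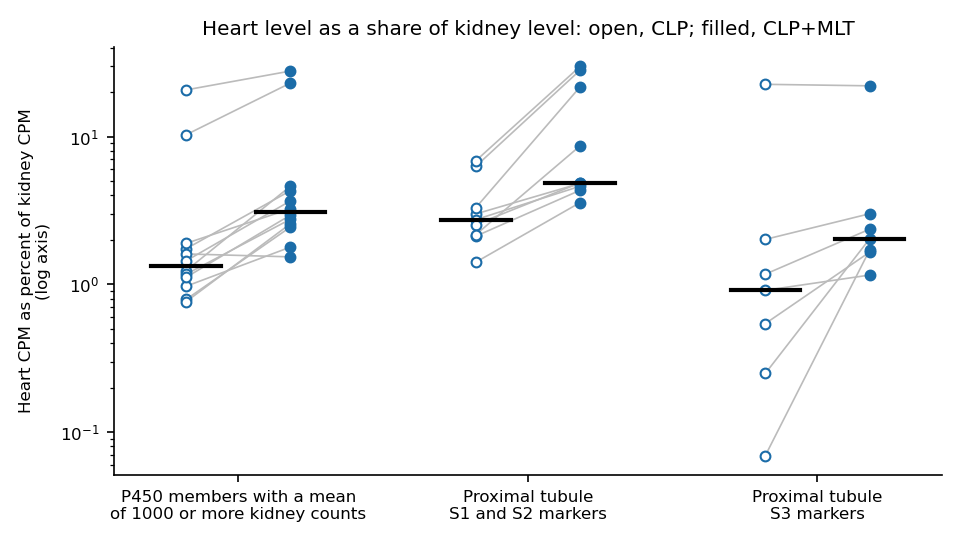
Heart level as a percent of kidney level, in CPM on a log axis, for the 12 members with a mean of 1000 or more kidney counts and for markers of proximal tubule. Open points are the CLP libraries, filled points the CLP+MLT libraries, lines join a gene and bars are medians. The median of the members was 1.34% in the CLP libraries and 3.09% in the CLP+MLT libraries, and both marker lists were also higher in the latter.

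In kidney the same S1 and S2 markers were split, with 2 of 9 called higher and 5 lower, and a median log2 ratio of -0.63. Their sum was 3702 and 3576 CPM. Of this sum, Slc34a1 alone held 1391 and 1885 CPM, and the other 8 markers summed to 2312 and 1691 CPM. The glucose transporter Slc5a2 had 4771 and 637 counts, while the phosphate transporter Slc34a1 had 31882 and 31051. Of the S3 markers, 1 of 7 was higher (Slc7a13, 1666 and 4936 counts) and 0 were lower. Of 10 hepatocyte markers, 6 could be tested in kidney and 3 were called higher, with a sum of 161 and 248 CPM. Of the same list, Tat, Ahsg and Mup3 were at 0 in both kidney libraries. Alb had 114 and 71 counts, Apoa2 124 and 101, Ttr 1209 and 793, and Serpina1a 2070 and 2928. The adipocyte markers summed to 3.27 and 0.607 CPM in kidney, with Adipoq, Lep and Retn at 0 in both kidney libraries. Plin1, with 33 and 1 counts, was called lower, and Cidec, with 32 and 8 counts, was not called. The part of these cell types in the kidney ratios was not tested.

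Over both tissues, 25 members could be compared, 11 were tested in kidney alone and 2, Cyp2r1 and Cyp4f15, in heart alone. Of the 25, 9 had a ratio below 0 in kidney and above 0 in heart, 2 the reverse, 9 were above 0 in both and 5 below 0 in both. No member was called in the same direction in both tissues. Of the members called in kidney, only Cyp2a5, Cyp2d22, Cyp2d26, Cyp2e1 and Cyp4a12a were tested in heart. Of all genes, 7.58% were called lower and 7.8% higher in kidney, and 8.78% and 7.15% in heart. The signs and calls in both tissues together were not counted over all genes, so these counts show nothing particular to the members. The kidney and heart comparisons share no library.

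Of the genes that supply P450 enzymes with electrons, 1 was called in each tissue. Beside this and the next lists, 7.8% of all genes were called higher and 7.58% lower in kidney, and 7.15% and 8.78% in heart. Por, the reductase, had 4398 and 3562 counts in kidney with a ratio of 0.37 (0.30 to 0.43), and 800 and 635 in heart with a ratio of -0.32 (-0.48 to -0.17). Neither was called. Of the 10 electron donors and partners tested in kidney, Fdxr of the mitochondrial chain was higher, with 422 and 500 counts and a ratio of 0.92 (0.73 to 1.11), and 0 were lower. Of 11 in heart, Cyb5r3 was lower, with 1306 and 857 counts and a ratio of -0.60 (-0.72 to -0.47), and 0 were higher. The call of Cyb5r3 was lost when libraries were scaled by size alone, with a ratio of -0.54, or by the upper quartile, with -0.55.

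Heme genes were lower in the CLP+MLT kidney where they were called, 3 of 13 against 0 higher, beside 7.58% and 7.8% of all genes. Hmox1, the inducible enzyme of heme breakdown, had 4739 and 472 counts, a ratio of -2.65 (-2.80 to -2.52). Alas1, the first and limiting enzyme of heme synthesis, had 9638 and 3634 counts, a ratio of -0.74 (-0.79 to -0.68), and Cpox had 778 and 311, a ratio of -0.65 (-0.85 to -0.46). In heart, 3 of 13 were lower, namely Urod, Alad and Hmox2 with ratios of -0.81, -0.73 and -0.69, and Cpox was higher with 70 and 173 counts and a ratio of 1.31.

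Among 20 transcription factors of P450 genes tested in kidney, 2 were higher and 1 was lower, beside 7.8% and 7.58% of all genes. The lower one, Nr1i2, the xenobiotic receptor PXR, had 187 and 66 counts, a ratio of -0.83 (-1.26 to -0.42). In heart, 5 of 20 were higher and 1 lower, beside 7.15% and 8.78% of all genes. Among the higher ones were Hnf4a with 81 and 203, Ppara with 30 and 76, and Ahr with 266 and 499 counts. Their ratios were 1.33, 1.34 and 0.92. Nr1h3 was lower, with 845 and 529 counts and a ratio of -0.67. Hnf4a is an epithelial factor, and most of the proximal tubule markers given above were also called higher in that heart library, a part that was not tested.

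The fatty acid partners of family 4 held the most calls in kidney. Of 19 genes of omega oxidation and PPAR alpha targets, 9 were lower and 2 higher, beside 7.58% and 7.8% of all genes. Plin2, the lipid droplet coat protein, had 10595 and 1014 counts, a ratio of -2.71 (-2.81 to -2.62). Pdk4, which blocks glucose oxidation, had 6729 and 1290, a ratio of -1.71 (-1.80 to -1.62). Fabp1 had 79 and 22 counts, a ratio of -1.16. Abcd3, a peroxisomal transporter, had 8288 and 2931 counts, a ratio of -0.83. Acot3, with 535 and 688 counts and a ratio of 1.03, and Slc27a2, with 72649 and 71943 counts and a ratio of 0.66, were the 2 higher. The ratio of Slc27a2 was 0.46 with library size alone and no longer called. In heart 4 of 18 were lower, Acot2, Angptl4, Pdk4 and Acot1, with ratios of -1.12, -0.99, -0.78 and -0.72. Slc27a2, a fatty acid transporter, was higher with 634 and 1777 counts and a ratio of 1.50 (1.37 to 1.63), as was Acot3 on few counts. The heart level of Slc27a2 was 1.2% of its kidney level in the CLP libraries and 2.56% in the CLP+MLT libraries, and that of Acot3 was 2.84% and 4.22%. Most of the proximal tubule markers given above were also called higher in that heart library, and their part in these ratios was not tested.

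Of the other eicosanoid enzymes and receptors, 0 of 22 were called in kidney in either direction by the binomial rule, and Ephx2, which hydrolyses the epoxides of the Cyp2c and Cyp2j enzymes, had 16586 and 7951 counts and a ratio of -0.39. In heart, 2 of 23 were higher and 2 lower, beside 7.15% and 8.78% of all genes. Ephx1 had 534 and 976 counts, a ratio of 0.88, and Hpgds had 52 and 83, a ratio of 0.68. Ptges had 108 and 38 counts, a ratio of -1.48, and Ptgds had 1545 and 944, a ratio of -0.70 that was -0.57 and not called with the length trend removed.

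**Figure D4:**
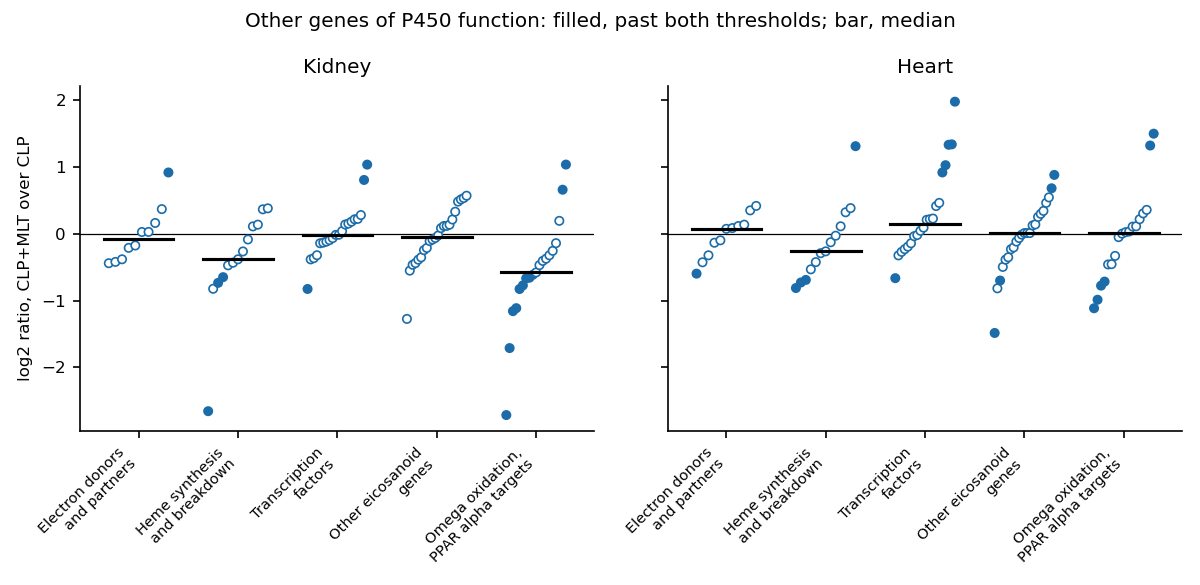
Ratio of the CLP+MLT level to the CLP level, on the log2 scale, of each tested gene of 5 lists around P450 function, kidney at left and heart at right, with filled points past both thresholds and bars at the medians. The lowest kidney points are Plin2 at -2.71 and Hmox1 at -2.65.

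P450 genes of other families were counted beside the members. Over all genes, 7.8% were called higher and 7.58% lower in kidney, and 7.15% and 8.78% in heart. In kidney, 13 were tested, 2 were higher (Cyp51 and Cyp46a1) and 2 lower (Cyp27b1 and Cyp24a1), with a median of -0.13. Cyp51, of cholesterol synthesis, had 2030 and 3834 counts, a ratio of 1.59. The vitamin D hydroxylases Cyp27b1 and Cyp24a1 had 185 and 31, and 249 and 42 counts, each a ratio of -1.89. In heart, 10 were tested, Cyp51 and Cyp7b1 were higher and Cyp1b1 and Cyp26b1 lower, with a median of 0.033. Cyp2ab1, a family 2 gene with a symbol of another form that was therefore no member, had 15 counts in each heart library and 1 and 0 in kidney. With 1 library a group, no test of a difference between these and the members was made.

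The remaining 39 genes of the symbol rule had a mean under 10 counts in both tissues. The nearest below was Cyp2c69 with 7 and 6 kidney counts, and the nearest above were Cyp2r1 with a heart mean of 11 and Cyp2d10 with a kidney mean of 11.5. The liver genes Cyp2c29, Cyp2c37, Cyp2c50 and Cyp2c54 had 0 counts in all 4 libraries.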

How the data were processed

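RNA was sequenced in 4 libraries, 1 per group. Per the labels and the study's methods, poly-A RNA was made into libraries with a NEBNext Ultra kit that does not mark strand, reads were trimmed with trim-galore and aligned to mm10 with HISAT2 2.1.0. The authors deposited raw counts per Ensembl gene, without normalization, and HTSeq is named in the submitters' processing notes. The sources used here give neither the annotation nor the strand setting of the counting. The 5 rows that name no gene (65.5% to 72.8% of each file) were left out.

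Names, exon lengths and coding sequences came from GENCODE M21, which matched 55141 of 55401 identifiers. The libraries were scaled within each tissue with edgeR 4.0.16 (TMM) in R 4.3.3. Ratios used a prior count of 0.5 and genes with a mean of 10 or more counts. Binomial tests and exact Clopper-Pearson intervals came from scipy 1.17.1 in Python 3.11.15, and identities from biopython 1.88. The procedure was tested on simulated data. Alternatives were other scalings (library size, DESeq2 1.42.0 size factors, upper quartile), filters, a prior count of 5, a fold of 2, the fold alone, a length trend removed, and edgeR's exact test with an assumed variation between mice (coefficient 0.1, 0.2 or 0.4). Protein identities were replaced by coding-sequence identities, since no protein table was used here.

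The members and lists were chosen with earlier results of these data known. Named are all members called in a tissue, the 3 highest of each family per length in each tissue, and from the pathway lists Por and the called genes with a mean of 50 or more counts, at most 6 per list and tissue by size. Other members, Slc27a2 in kidney, Ephx2, the P450 genes of other families and single marker genes were named after their values were seen. Levels between genes were compared as RPKM, from exon lengths. CPM and RPKM were taken from library size alone, while the ratios were scaled by TMM. Some genes that the naming rule picked are not reported here.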

Additional observations from a re-analysis of the deposited data

Results flagged for a closer look

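Cyp2e1 was called in opposite directions in the 2 tissues. Its log2 ratio was -0.91 in kidney, from 25518 and 8536 counts, and 0.74 in heart, from 229 and 380 counts. The heart ratio exceeded the kidney ratio by 1.65 on the log2 scale. The difference was not tested, because each tissue had 1 library a group. At an assumed variation of 0.2 neither ratio was called. The heart level of Cyp2e1 was 1.24% of the kidney level in the CLP libraries and 4.62% in the CLP+MLT libraries. That share moved with both tissues, with 1113 and 518 CPM in kidney and 13.8 and 23.9 CPM in heart. Most of the proximal tubule markers were also called higher in the CLP+MLT heart. The S1 and S2 markers summed to 104 CPM in heart CLP and 197 CPM in heart CLP+MLT. Of these sums, Slc34a1 alone held 35.3 and 91.5 CPM, and the other 8 markers held 68.6 and 105 CPM. The part of tubule RNA in the heart value was not tested.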

How the results depend on the processing

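No paired analysis was possible because each group had 1 library, and for the same reason no library could be left out. Over 13 alternatives, 1695 of 1859 values of single genes stayed on their side of the thresholds, 146 lost a call and 18 gained one. In 10 cases, none of them called, the ratio changed sign, 6 of them with library size alone. In kidney, scaling by library size alone gave 5 family 4 members called lower (3 with TMM) and 23 list genes called lower (13), and 2373 of all genes lower (1284) and 727 higher (1320). The upper quartile gave 3 family 2 members higher (1). A fold of 2 left 3 of the 6 family 2 members and 1 of the 3 family 4 members lower, and of the list genes 2 higher (5) and 5 lower (13). An assumed variation of 0.2 left 0 family 2 members higher, 2 lower, 1 family 4 member lower, 0 list genes higher and 4 lower, and a variation of 0.4 left 0 members in either family and direction, 0 list genes higher and 2 lower. In heart, a fold of 2 left 0 family 4 members lower (1) and 2 list genes lower (11), and the fold alone gave 2 members lower in family 2 (0) and 2 in family 4. The fold alone also called Cyp2d12, Cyp2d26 and Cyp4f18 higher in heart. An assumed variation of 0.2 left 1 family 2 member and 1 family 4 member higher, 0 family 4 members lower, 4 list genes higher (10) and 1 lower, and a variation of 0.4 left 0 in every one of these counts. Of all genes, a fold of 2 called 563 higher and 622 lower in kidney and 595 and 664 in heart, and a variation of 0.2 called 289 and 330, and 292 and 370. The heart filter of 50 counts called 689 higher and 1097 lower, against 1134 and 1394. Cyp4a14 lost its heart call with a prior count of 5. Calls lost at an assumed variation follow from its construction. The alternative filters kept the same scaling, so no ratio or call of a single gene could change under them. Their values, 79 and 68 in kidney and 66 and 51 in heart, are among the 1695 and say nothing on stability. Likewise a fold of 2 could only lose calls, and the fold alone could only gain them. Heart members with under 50 counts, and Cyp3a13 in both tissues, were limited by depth.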
